A study of Mus musculus with 8 samples.

Results

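The transsulfuration and glutathione synthesis genes were taken as 10 named genes of the count table, namely Cbs, Cth, Cdo1, Csad, Suox, Mpst, Gclc, Gclm, Gss and Gsr. They were found by their symbols, and all 10 were present among the 33212 genes of the table. All 10 also passed the filter on low counts, which left 15291 genes for testing. The data are RNA-seq counts from the livers of 8 male C57BL/6 mice, with 1 library per mouse. The 4 Nnmt KO mice, labelled Nnmt LKO, carried Alb-Cre with Nnmt flox/flox, so that Cre is driven by the albumin promoter. The study calls this knockout hepatocyte-specific, and Nnmt was not measured separately in the other liver cells here. The 4 control mice are labelled WT. The study's text gives the genotype of the control mice as Nnmt flox/flox. Mice of both genotypes spent 8 weeks on a diet without methionine and choline (MCD), and their age at the start was not given. No mice on another diet were among these libraries, so each comparison is between genotypes on the MCD diet. The columns carry no mouse number, and the libraries were lettered a to d within each genotype.

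Transsulfuration moves the sulfur of methionine, by way of homocysteine, to cysteine. Cystathionine beta-synthase joins homocysteine to serine and cystathionine gamma-lyase releases cysteine. In the liver, cysteine is then either oxidised to taurine and sulfate, desulfurated with the release of sulfide, or joined to glutamate and glycine as glutathione, the main thiol that protects cells against oxidants. The liver is a major site of each of these routes, and the MCD diet removes the dietary methionine that feeds them.

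The promoter sequences of Csad and Gclm are shown. Csad had the largest difference between genotypes among the 10 genes. Of the 6 genes that could be searched, only Gclm had a match to the antioxidant response element in a window outside annotated exons. RefSeq start sites of GRCm38.p6 were available for 6 of the 10 genes, in 9 windows, and the 250 bases before each start were searched on both strands. No window was available for Cth, Cdo1, Gclc or Gsr, so whether their promoters hold these motifs is not known here. For Csad the window is chr15:102189044-102189293 on the minus strand, before the downstream of its 2 RefSeq start sites. For Gclm it is chr3:122245307-122245556 on the plus strand. Capitals mark GC boxes (GGGCGG or its complement) in both and, in Gclm, the match GCACCGTCA to the antioxidant response element core TGACNNNGC on the opposite strand.
Csad: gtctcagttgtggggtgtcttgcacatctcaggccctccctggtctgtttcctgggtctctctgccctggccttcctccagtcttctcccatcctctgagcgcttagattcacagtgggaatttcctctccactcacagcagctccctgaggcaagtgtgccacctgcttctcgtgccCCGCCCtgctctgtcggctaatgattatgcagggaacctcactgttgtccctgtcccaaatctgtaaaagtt
Gclm: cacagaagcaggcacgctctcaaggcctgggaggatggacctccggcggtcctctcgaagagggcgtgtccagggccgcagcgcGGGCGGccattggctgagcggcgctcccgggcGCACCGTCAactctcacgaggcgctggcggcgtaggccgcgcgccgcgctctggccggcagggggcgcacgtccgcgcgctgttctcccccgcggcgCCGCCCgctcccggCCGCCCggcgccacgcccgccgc

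The Gclm match starts at position -134 from the start site. A second match to the core, TGACATGGC, lay at -12 in 1 of the 3 Mpst windows. The core was present in 10.2% of all 32851 promoter windows, and the GC box in 32.7%. GC boxes also lay in the windows of Cbs and Suox. The window before the upstream start site of Csad, which is not printed, held no match to any motif searched. The stricter form TGACTCAGC, present in 0.39% of windows, and the amino acid response element core TGATGNAA, present in 3.45%, were not found in any of the 9 windows. An E-box (CACGTG), present in 6.02% of windows, was found only in that of Cbs, at -229. The guanine and cytosine content was 78.4% for the Gclm window, 55.6% for the printed Csad window and 44.8% for the upstream Csad window. These are matches of letters, and binding at them was not measured.

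Total counts per library were between 75020072 and 87934362, and TMM scaling factors between 0.876 and 1.21. Nnmt itself was at 31.8 to 83 CPM (counts scaled to the library total, here with TMM factors) in Nnmt KO mice and 84.9 to 224 CPM in control mice. Nnmt RNA was thus still present in all 4 Nnmt KO livers. Nnmt KO library a stood apart from the other 3 Nnmt KO libraries. Its TMM factor was 1.21 against 0.952 to 0.977, and its summed level of 8 hepatocyte markers was 66400 CPM against 104000 to 117000 CPM. Its stellate cell and fibroblast markers summed to 940 CPM against 487 to 539 CPM, and its cholangiocyte markers to 279 CPM against 89.4 to 178 CPM. Most of the cholangiocyte sum was 1 gene, Spp1, at 243 CPM in library a against 71.4 to 150 CPM. In whole liver RNA, fewer cells of a type cannot be told apart from less RNA per cell. Results that rest on this library are given with and without it.

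Differences between genotypes are given as log2 differences, which are edgeR's fitted log2 fold changes of Nnmt KO over control. None of the 10 genes passed an adjusted p of 0.05 by edgeR's quasi-likelihood test over all genes, a limit passed by 0.32% of all tested genes. At an unadjusted p under 0.05 there were 2 genes, Csad with the higher level in Nnmt KO mice and Mpst with the lower. Of all tested genes, 12.6% met that limit, 5.45% with the higher level in Nnmt KO mice and 7.13% with the lower, so that 2 of 10 genes is near the background. With scaling by library size only the count was again 2, beside 9.4% of all genes. With DESeq2's Wald test, 2 genes also had an unadjusted p under 0.05, and 1 of them, Csad, passed an adjusted p of 0.05, as did 3.46% of the genes with an adjusted p in that test. The median log2 difference of the 10 genes was 0.04, beside 0.02 for all tested genes, with 6 genes above 0 and 4 below. Csad was the only gene of the list whose libraries did not overlap between genotypes, with Nnmt KO higher. This was the case for 8.16% of all tested genes, 3.34% with Nnmt KO higher and 4.81% with Nnmt KO lower.

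**Figure D1:**
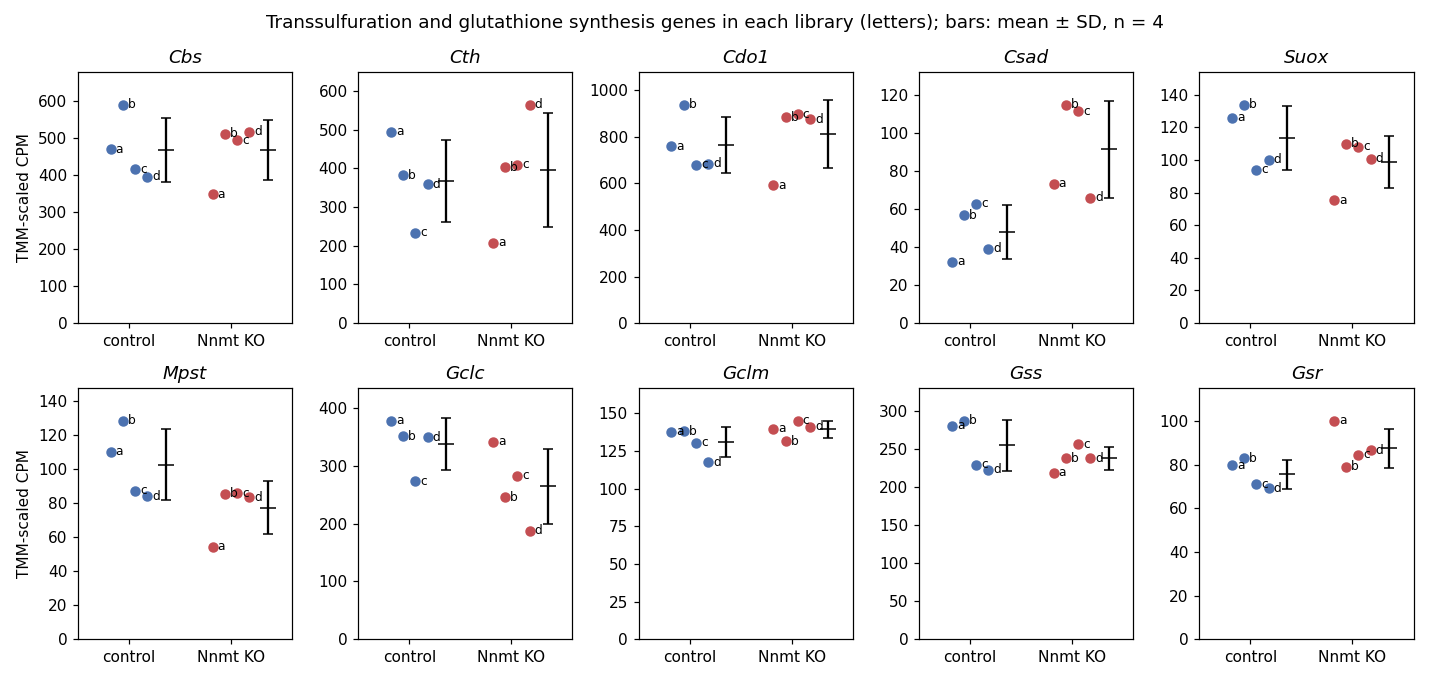
Each panel plots the TMM-scaled CPM of 1 gene in the 4 control libraries (blue) and the 4 Nnmt KO libraries (red), lettered a to d, with bars for the mean ± SD. Csad is the only panel in which all 4 Nnmt KO points lie above all 4 control points, and Nnmt KO library a is the lowest of its genotype for Cbs, Cth, Cdo1, Suox, Mpst and Gss.

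The genes differed widely in level. Levels of different genes are compared as scaled CPM per kilobase of exon, which allows for their length. In control mice, Cdo1 had the highest level, at 465 ± 73.6 CPM per kb (SD, n = 4), and its libraries lay above those of every other gene on the list. Cth followed at 131.5 ± 38.3 CPM per kb, then Gclc at 89.6 ± 12 CPM per kb, and their libraries overlapped. Cbs, Mpst, Suox and Gss lay between 43.1 and 62.5 CPM per kb, and neighbours in this order overlapped from library to library. Gsr was at 27.5 ± 2.4, Gclm at 20.8 ± 1.54 and Csad at 12.5 ± 3.74 CPM per kb, without overlap between these 3 genes. In Nnmt KO mice the same 4 genes came first in the same order. At the lower end, Csad at 23.9 ± 6.63 CPM per kb came before Gclm at 22.1 ± 0.909, with overlap, so that Csad was the lowest gene of the list only in control mice. The order in the middle and at the lower end depends on the length used. Gss came 4th in place of 7th in control mice when the longest transcript was taken. Csad in Nnmt KO mice then came 7th in place of 9th, at 40.1 CPM per kb. In control mice it stayed the lowest, at 21 CPM per kb beside 23.4 for Gclm. The statements on overlap between genes hold for the exon length only.

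**Figure D2:**
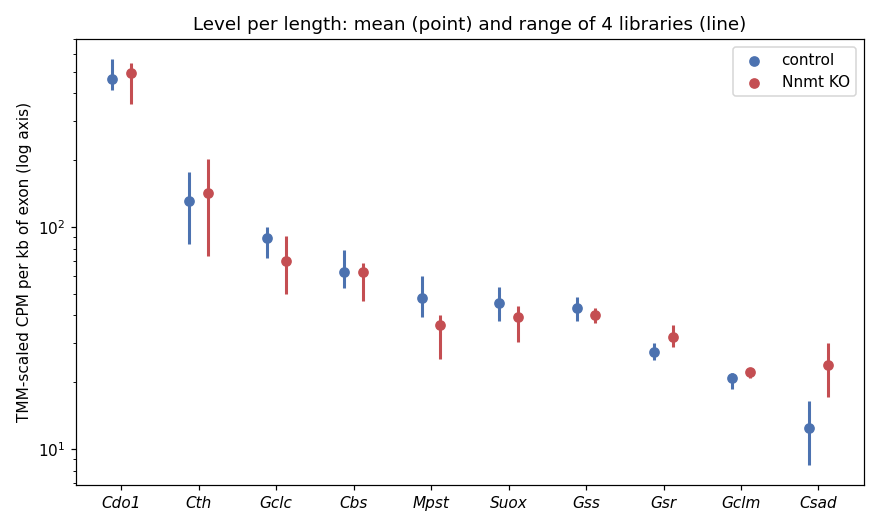
The level of each gene is plotted as scaled CPM per kilobase of exon on a log axis, with the mean of 4 libraries as a point and their range as a line, for control (blue) and Nnmt KO (red). Cdo1 stands above all other genes in both genotypes, and Csad is the lowest gene in control mice only.

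No difference between genotypes was detected for the genes of the transsulfuration enzymes. Cbs (ENSMUSG00000024039, chromosome 17, 31608894 to 31637238, minus strand, GENCODE M21 on GRCm38), whose product makes cystathionine, was at 470, 590.5, 415.5 and 396 CPM in control libraries a to d. In Nnmt KO libraries a to d it was at 348, 512.5, 494.5 and 517 CPM. Library a was low among the Nnmt KO libraries, and the other 3 lay inside the control range. The means were 468 ± 87.4 CPM in control mice against 468 ± 80.4 CPM in the Nnmt KO mice (SD, n = 4 each). The fitted log2 difference was 0.0002 with a standard error of 0.17 and a 95% interval from -0.37 to 0.38 (edgeR, adjusted p = 1). A difference larger than 1.3-fold in either direction thus lies outside this interval. Without Nnmt KO library a the log2 difference was 0.12.

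Cth (ENSMUSG00000028179, chromosome 3, 157894248 to 157925077, minus strand), which encodes the lyase that releases cysteine, varied widely from mouse to mouse. It was at 494, 382, 233 and 359 CPM in control libraries a to d and at 207, 402.5, 409 and 564.5 CPM in Nnmt KO libraries a to d. The highest and the lowest of the 8 values were both from Nnmt KO mice. Its log2 difference was 0.11 (standard error 0.28, edgeR's adjusted p = 0.906), with a 95% interval from -0.52 to 0.73. Its sign depended on single mice, as it was -0.11 without Nnmt KO library d, -0.06 without control library c and 0.32 without Nnmt KO library a. An antisense gene, 1810013D15Rik, starts 143 bases from Cth and had 118 counts over all libraries, against 246482 for Cth.

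Cysteine oxidation begins with cysteine dioxygenase, the product of Cdo1 (ENSMUSG00000033022, chromosome 18). Cdo1 ranged from 679 to 938 CPM in control mice and from 591 to 897 CPM in Nnmt KO mice, and its log2 difference of 0.09 (standard error 0.17) was within the spread between mice (edgeR's adjusted p = 0.876). In Nnmt KO mice, 3 libraries lay close together, between 875 and 897 CPM, and library a lay well below them at 591 CPM. Without library a the log2 difference was 0.21, and edgeR's adjusted p was 0.56.

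Csad (ENSMUSG00000023044, chromosome 15, 102176999 to 102204724, minus strand) encodes cysteine sulfinic acid decarboxylase, which turns the product of cysteine dioxygenase towards taurine, the amino acid that mice join to bile acids. It was at 32.4, 56.8, 62.8 and 39.3 CPM in control libraries a to d and at 73.4, 115, 111.5 and 65.9 CPM in Nnmt KO libraries a to d. Nnmt KO libraries b and c were high, and libraries a and d lay just above the highest control library. The means were 47.8 ± 14.3 CPM in control mice against 91.5 ± 25.4 CPM in the Nnmt KO mice (SD, n = 4 each). The fold difference was 1.91, with a 95% interval from 1.33 to 2.75, and the log2 difference was 0.93 (standard error 0.24). The unadjusted p was 0.00235 and the adjusted p 0.12 in edgeR's test, and 297 genes (1.94% of those tested) had a p as small. A difference of at least this size, in either direction, was found for 4.11% of the tested genes. A two-sided exact permutation test of the 8 libraries gave p = 0.0286, the smallest that 4 mice against 4 allow.

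The call for Csad depended on the tool and its separation on the scaling. DESeq2's Wald test gave an adjusted p of 0.00746 with nearly the same log2 difference, 0.94, while over the other 11 alternatives the adjusted p from edgeR stayed above 0.05. On simulated data with 200 genes changed by 1 on the log2 scale, DESeq2 called 137 with 32 false calls, and edgeR called 108 with 2. This does not show whether the call for Csad is a false one. The log2 difference of Csad lay from 0.81 to 1.09 over all 12 alternatives, and the unadjusted p was under 0.05 in each. Without Nnmt KO library a it was 1.03 (edgeR, adjusted p = 0.0839). When counts were scaled by library size only, Nnmt KO library d, at 63 CPM, fell below control library c, at 65.8 CPM, and the genotypes overlapped. The exons of Csad share 278 bases with those of Zfp740 on the other strand, and the files do not say whether reads were counted by strand. Zfp740 was at 27.8 CPM in control mice against 26.1 CPM in the Nnmt KO mice, with a log2 difference of -0.09 (standard error 0.17, edgeR's adjusted p = 0.859). The counts also sum over 2 RefSeq start sites of Csad, so they do not show from which of them the RNA came.

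The other branch of cysteine sulfinate breakdown ends in sulfate. Suox (ENSMUSG00000049858, chromosome 10, 128669894 to 128674073, minus strand), the gene of the mitochondrial sulfite oxidase, ranged from 93.8 to 134 CPM in control mice and from 75.4 to 110 CPM in Nnmt KO mice. Its log2 difference of -0.20 (standard error 0.16, edgeR's adjusted p = 0.629) was not distinguishable from 0, and it was -0.10 without Nnmt KO library a. Both branches can be set side by side within a library, where no scaling factor enters. The ratio of Csad to Suox, as counts per kb, was 0.168, 0.277, 0.436 and 0.255 in control libraries a to d and 0.635, 0.683, 0.673 and 0.427 in Nnmt KO libraries a to d. Nnmt KO library d lay just below control library c, and the other 3 Nnmt KO libraries lay above every control library. The ratio of Csad to Cdo1 had means of 0.0272 ± 0.009 in control and 0.0487 ± 0.011 in Nnmt KO mice (SD, n = 4 each), and again overlapped through the same pair of libraries. These ratios, and the others given here, were chosen after the values of the genes were seen and were not tested.

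Mpst (ENSMUSG00000071711, chromosome 15, 78406416 to 78414013, plus strand) encodes 3-mercaptopyruvate sulfurtransferase, one of the enzymes that release sulfide from cysteine carbon chains. It was at 110, 128, 87.4 and 84.1 CPM in control libraries a to d and at 54.3, 85.7, 86 and 83.6 CPM in Nnmt KO libraries a to d. Control libraries a and b were high and Nnmt KO library a was low, while the other 5 libraries lay between 83.6 and 87.4 CPM. Its log2 difference was -0.41 (standard error 0.18), and edgeR's p was 0.044 before and 0.381 after adjustment, beside an exact permutation p of 0.114. Without Nnmt KO library a it was -0.27, at an unadjusted p of 0.101 by edgeR, and without control library b it was -0.27, at 0.153. When only library size was used for scaling, every Nnmt KO library, at no more than 83.7 CPM, lay below every control library, at no less than 89.4 CPM, and edgeR's adjusted p was 0.318. The neighbouring gene Tst, which encodes the related sulfurtransferase rhodanese, starts 509 bases away on the other strand and had a log2 difference of -0.19 (standard error 0.16, edgeR's adjusted p = 0.645). The ratio of Mpst to Tst, per kb, was 0.424 to 0.545 in control and 0.38 to 0.447 in Nnmt KO libraries, with overlap.

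**Figure D3:**
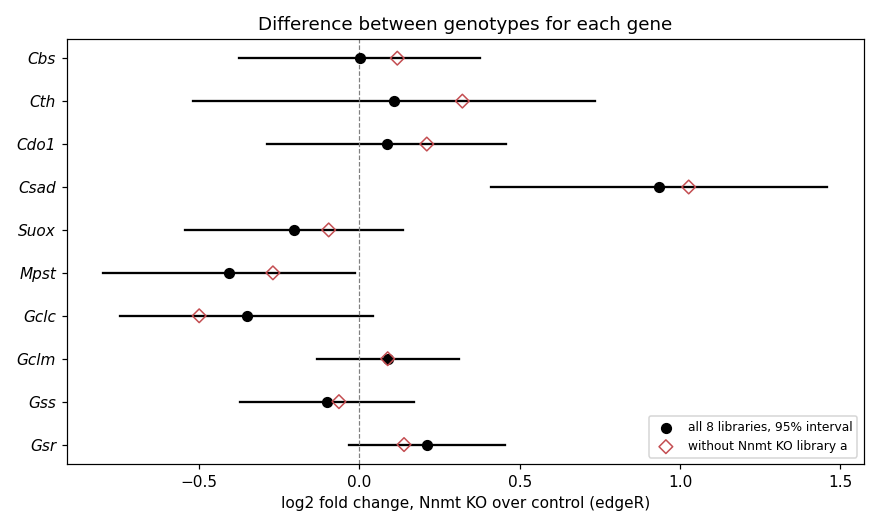
Log2 differences of the 10 genes (the log2 fold change, Nnmt KO over control, on the x axis) are plotted with 95% intervals from edgeR (black), and without Nnmt KO library a (open diamonds). The intervals of Csad (0.41 to 1.46) and Mpst (-0.80 to -0.01) do not include 0, and leaving out library a moves Mpst towards 0 and Gclc away from it.

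Glutathione is made in 2 steps, the first of which is limiting and is catalysed by glutamate-cysteine ligase, a pair of a catalytic subunit (Gclc) and a modifier subunit (Gclm). Gclc (ENSMUSG00000032350, chromosome 9, 77754535 to 77794485, plus strand) lies on the same chromosome as Nnmt, which lies from 48591877 to 48605153 on the minus strand. It was at 377, 351, 273 and 349 CPM in control libraries a to d and at 342, 246, 282 and 188 CPM in Nnmt KO libraries a to d. Nnmt KO libraries b and d were below every control library, and library a was inside the control range. For Gclc the log2 difference was -0.35 (standard error 0.18), with a 95% interval from -0.75 to 0.04 and an edgeR adjusted p of 0.446. It was -0.50 without Nnmt KO library a, where edgeR's p was 0.0103 before and 0.203 after adjustment, and -0.22 without Nnmt KO library d, where the unadjusted p was 0.204. The size of the difference in Gclc thus depended on which of these mice was included.

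Gclm (ENSMUSG00000028124, chromosome 3, 122245557 to 122270732, plus strand), whose product makes the catalytic subunit more efficient, had the smallest SD relative to its mean in both genotypes. It ranged from 117.5 to 138 CPM in control mice and from 131 to 145 CPM in Nnmt KO mice. Its log2 difference was 0.09 (standard error 0.10, edgeR's adjusted p = 0.754), with an interval from -0.13 to 0.31. Its exons share 296 bases with those of Gm17494 on the other strand, which had 2703 counts in all against 88734 for Gclm. The ratio of Gclc to Gclm, per kb, was 4.57, 4.24, 3.49 and 4.96 in control libraries a to d and 4.08, 3.12, 3.25 and 2.22 in Nnmt KO libraries a to d. Nnmt KO libraries b, c and d lay below every control library, while library a lay among the controls.

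Gss (ENSMUSG00000027610, chromosome 2, 155563181 to 155592810, minus strand), the gene of glutathione synthetase for the second step, ranged from 222.5 to 287 CPM in control mice and from 219 to 256 CPM in Nnmt KO mice. Its log2 difference was -0.10 (standard error 0.12, edgeR's adjusted p = 0.775). Its exons share 395 bases with those of Acss2 on the other strand, which had a log2 difference of 0.18 (standard error 0.15, adjusted p = 0.664). Gsr (ENSMUSG00000031584, chromosome 8, 33652523 to 33698163, plus strand) encodes glutathione reductase, which returns oxidised glutathione to its reduced form with NADPH. It was at 79.7, 82.9, 71.1 and 69.2 CPM in control libraries a to d and at 100.1, 79.1, 84.6 and 86.5 CPM in Nnmt KO libraries a to d. Library a was the highest of all, library b lay among the controls, and libraries c and d lay just above them. The log2 difference was 0.21 (standard error 0.11, edgeR's adjusted p = 0.461) and 0.14 without Nnmt KO library a. With scaling by library size only, the 4 Nnmt KO libraries, from 77.3 to 121 CPM, lay above the 4 control libraries, from 72.7 to 75.9 CPM, but edgeR's adjusted p was still 0.582. The ratio of Gsr to Gss, per kb, was 0.611 to 0.668 in control and 0.71 to 0.982 in Nnmt KO libraries, without overlap.

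**Figure D4:**
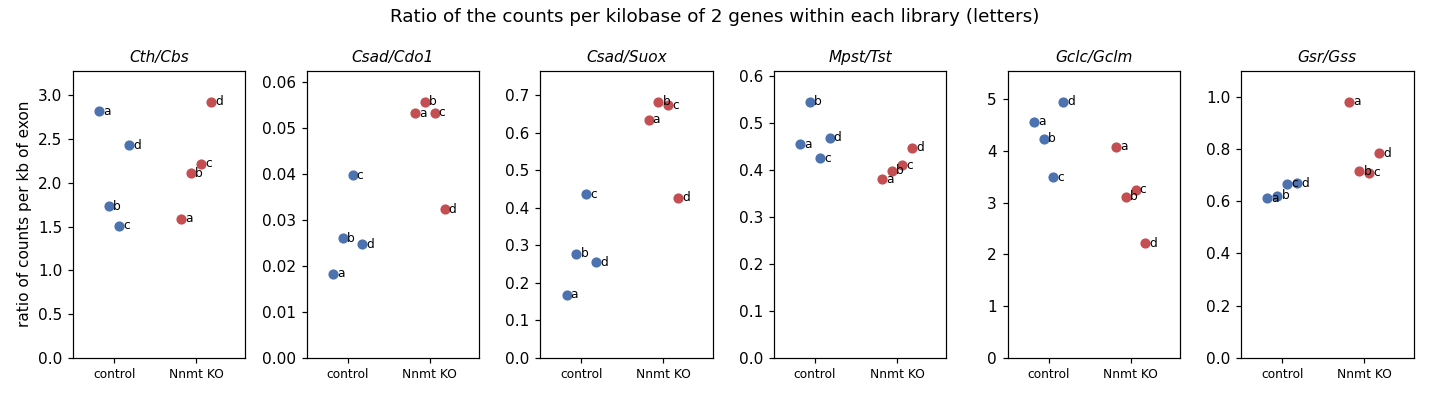
Each panel plots the ratio of the counts per kilobase of 2 genes within each of the 8 libraries, for control (blue) and Nnmt KO (red), so that no scaling factor enters. Gsr/Gss is the only 1 of the 6 ratios whose genotypes do not overlap, and Gclc/Gclm is lower than in every control in Nnmt KO libraries b, c and d.

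Across the list, Nnmt KO library a had the lowest level of its genotype for 6 of the 10 genes (Cbs, Cth, Cdo1, Suox, Mpst and Gss) and the highest for 2 (Gclc and Gsr). Without scaling factors it was lowest for 5 and highest for 4. Control library b was the highest of its genotype for 7 genes, and control library d the lowest for 5. The part of cell type composition in these places was not tested. The stellate cell markers of this library, and its low hepatocyte markers, are given above. Over all libraries, the 8 hepatocyte markers ranged from 81500 to 121000 CPM in control mice and from 66400 to 117000 CPM in Nnmt KO mice, and none of them passed an unadjusted p of 0.05 by edgeR's test. Of the markers of other cells, 3 of 9 for stellate cells (Dcn, Lrat and Reln), 2 of 7 for T, NK and B cells (Cd3g and Cd8a) and 1 of 6 for cholangiocytes (Epcam) were higher in Nnmt KO mice at that limit, 1 of 3 erythroid markers (Alas2) was lower, and none passed edgeR's adjusted p of 0.05. Of all tested genes, 5.45% were higher and 7.13% lower at the unadjusted limit. All members of the stellate cell, the T, NK and B cell and the cholangiocyte lists had log2 differences above 0. So did 7995 of all 15291 tested genes. Of the other cell types, 8 macrophage markers summed to 359 to 699 CPM in control mice against 529 to 731 CPM in the Nnmt KO mice, 9 stellate cell markers to 374 to 581 and 487 to 940 CPM, and 6 endothelial markers to 144 to 278 and 183 to 210 CPM. Markers of T, NK and B cells were low, at 2.35 to 3.35 CPM in control mice against 3.9 to 5.35 CPM in the Nnmt KO mice, and did not overlap. The 6 cholangiocyte markers summed to 50.3 to 167 CPM in control mice against 89.4 to 279 CPM in the Nnmt KO mice. Spp1 alone was at 34.8 to 138 CPM and 71.4 to 243 CPM. Neutrophil markers, with Ly6g at 0 in every library, summed to 5.11 to 13 and 4.91 to 13.6 CPM, and erythroid markers to 422 to 663 and 398 to 516 CPM. The highest macrophage and neutrophil sums in Nnmt KO mice were those of library a. The other Nnmt KO libraries were at 529 to 550 CPM for macrophage and 4.91 to 7.31 CPM for neutrophil markers.

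The genes around these routes were described with 6 lists of 101 genes in all, of which 100 were tested. The lists were chosen with earlier results of these data known. The shares given for them here and below are thus descriptions, not a test of the lists. None passed an adjusted p of 0.05 by edgeR's test, while DESeq2's Wald test gave 8 of the 100, beside 3.46% of all genes. These 8 were Got1, Ccbl1, Selenbp2, Slc3a2, Anpep, Chac1, Atf4 and Ppargc1a, at DESeq2 adjusted p from 0.000403 (Atf4) to 0.0276 (Slc3a2). At an unadjusted p under 0.05, 7 were higher and 14 lower in Nnmt KO mice, or 21% of those tested beside 12.6% of all genes. The median log2 difference was -0.03. Without Nnmt KO library a, 5 of the genes passed an adjusted p of 0.05 (Got1, Ccbl2, Selenbp2, Chac1 and Ppargc1a), as did 0.963% of all genes in that fit.

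Of the sulfide, taurine and cysteine breakdown genes, 18 of 19 were tested (Slc13a1 had 12 counts in all and was not). At an unadjusted p under 0.05, 3 were higher and 2 lower (27.8% of those tested, beside 12.6% of all tested genes). Got1, a cytosolic aspartate aminotransferase that can also transaminate cysteine and its sulfinate, was at 495, 896, 374 and 421 CPM in control libraries a to d and at 602, 1120, 1610 and 1380 CPM in Nnmt KO libraries a to d. Control library b lay above Nnmt KO library a, and the log2 difference was 1.11 (standard error 0.33, edgeR's adjusted p = 0.183). Selenbp2, of the selenium-binding protein family, had means of 13.3 ± 2.8 CPM in control mice against 25.6 ± 5.17 CPM in the Nnmt KO mice (n = 4 each) and a log2 difference of 0.95 (edgeR's adjusted p = 0.0711). It belongs to a pair of closely similar genes with Selenbp1, between which reads may have been split. The kynurenine aminotransferase genes, whose products also act on cysteine conjugates, had log2 differences of opposite sign, -0.66 for Ccbl1 (Kyat1) and 0.66 for Ccbl2 (Kyat3), at edgeR's adjusted p of 0.0725 and 0.317. The sulfate transporter gene Slc26a1 had a log2 difference of -0.53 (adjusted p = 0.195). The other steps of sulfide and taurine handling had values near 0, with log2 differences of -0.03 for Ethe1, -0.17 for Sqor, -0.16 for Ado, 0.11 for Fmo1 and 0.07 for Baat, which were named after their values were seen.

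Of the 13 genes of cysteine supply and amino acid transport, 3 were lower and none higher at an unadjusted p under 0.05. This is 23.1% of the list, beside 12.6% of all tested genes, and the median log2 difference of the list was -0.14. Slc3a2, the heavy chain that carries the cystine transporter to the cell surface, was at 127 to 159 CPM in control mice against 80.9 to 126 CPM in the Nnmt KO mice, a log2 difference of -0.53 (edgeR's adjusted p = 0.142). Anpep, an aminopeptidase that can split the dipeptide left from glutathione, was at 210 to 256 CPM in control mice against 136 to 170 CPM in the Nnmt KO mice, a log2 difference of -0.54 (edgeR's adjusted p = 0.0877). The neutral amino acid transporter gene Slc1a4 had a log2 difference of -0.53 (adjusted p = 0.271).

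Of the 32 genes of glutathione breakdown, use, recycling and transport, an unadjusted p under 0.05 was found for 1 higher and 2 lower genes. This is 9.38% of the list, beside 12.6% of all tested genes. Chac1, which encodes an enzyme that cleaves glutathione, was at 3.34, 3.7, 5.05 and 3.08 CPM in control libraries a to d and at 2.21, 0.743, 1.18 and 0.363 CPM in Nnmt KO libraries a to d. All 4 Nnmt KO libraries were below all 4 controls, with a log2 difference of -1.74 (standard error 0.44, edgeR's adjusted p = 0.116). Abcc4, an efflux pump, had a log2 difference of 0.52 (adjusted p = 0.25), and Ggt6, of the gamma-glutamyltransferase family, of -0.35 (adjusted p = 0.3). The glutathione peroxidase gene Gpx1, named after its values were seen, had a log2 difference of -0.05 (edgeR's adjusted p = 0.917).

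Upstream, among 16 genes of the methionine cycle, 1 was higher and 2 lower at an unadjusted p under 0.05 (18.8%, beside 12.6% of all tested genes). These included Ahcyl2, with a log2 difference of 0.32, and Gamt, which encodes the methyltransferase of creatine synthesis, with -0.80, at edgeR's adjusted p of 0.211 and 0.218. The cofactors of these enzymes are pyridoxal phosphate, heme and molybdenum. Of 9 genes for them, 1 was lower at that limit (11.1%, beside 12.6% of all tested genes). This was the sulfurtransferase gene Mocs3, with a log2 difference of -0.37 (edgeR's adjusted p = 0.366).

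Among 12 regulators, 2 were higher and 4 lower at an unadjusted p under 0.05 (50% of the list, beside 12.6% of all tested genes). Since this list too was chosen with earlier results known, the share cannot be read as an excess. Nfe2l2, the gene of the transcription factor NRF2 that drives Gclc, Gclm and Gsr, was at 57.8 to 71 CPM in control mice against 58.8 to 72 CPM in the Nnmt KO mice (log2 difference -0.01, edgeR's adjusted p = 0.983). Its repressor genes Keap1 and Bach1 had log2 differences of -0.25 (adjusted p = 0.374) and 0.08 (adjusted p = 0.854), and its partner Mafg of -0.31 (adjusted p = 0.302). Atf4, the gene of a transcription factor of the response to amino acid shortage, was at 103 to 123 CPM in control mice against 68.2 to 85.2 CPM in the Nnmt KO mice (log2 difference -0.56, edgeR's adjusted p = 0.0711). Nr0b2, the gene of the nuclear receptor SHP that is induced by bile acids, was at 18.4 to 24.7 CPM in control mice against 8.95 to 18.4 CPM in the Nnmt KO mice, a log2 difference of -0.64 (standard error 0.19, edgeR's adjusted p = 0.188). The highest Nnmt KO library lay below the lowest control library by less than the rounding shown. The gene of the bile acid receptor itself, Nr1h4, named after its values were seen, had a log2 difference of 0.08 (adjusted p = 0.836). Ppargc1a, a coactivator of the fasting response, had means of 11.8 ± 1.05 CPM in control mice against 20.9 ± 4.92 CPM in the Nnmt KO mice (n = 4 each), a log2 difference of 0.82 (edgeR's adjusted p = 0.0711). Sp1, whose product binds GC boxes, had a log2 difference of 0.23 (adjusted p = 0.338).

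**Figure D5:**
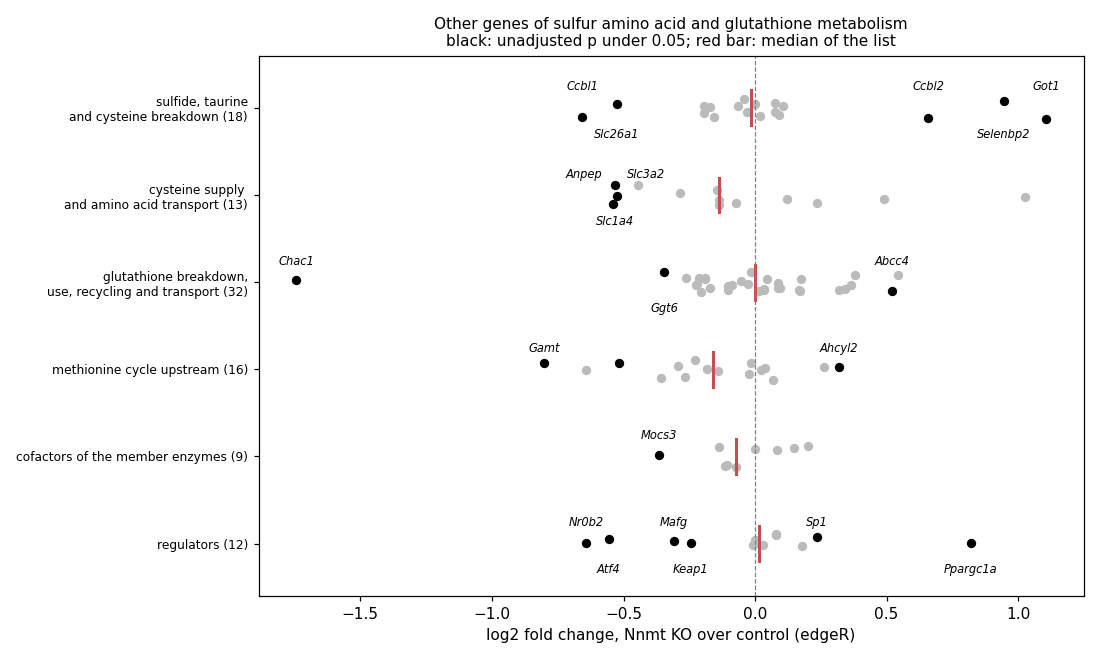
Log2 differences (the log2 fold change, Nnmt KO over control, on the x axis) of the 100 tested genes of the 6 lists are plotted by list, with genes at an unadjusted p under 0.05 in black, named where the text describes them, the others in grey, and the median of each list as a red bar. The list medians lie between -0.16 and 0.02, with Chac1 at -1.74 and Got1 at 1.11 as the extremes.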

How the data were processed

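RNA was taken from the livers of 4 Nnmt KO and 4 control mice. The authors state that reads were aligned and quantified with HISAT2, and the submitters' processing notes name HISAT2, StringTie and the build mm10. Their versions, the annotation and the use of strand are not given in the sources used here. The deposited values are whole-number counts per gene, without normalization. The methods name a KAPA library kit and the labels a NEBNext kit. Replicates were 1 library per mouse, and none was a copy of another, with a chi-square per degree of freedom of at least 42.1 within a genotype. At these depths 3 counts stand for 0.0341 to 0.04 CPM, which covers counting error only.

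The filter on low counts was filterByExpr of edgeR with a minimum count of 10. TMM scaling and the quasi-likelihood test used edgeR 4.0.16 in R 4.3.3, with Benjamini-Hochberg adjustment over all tested genes. The standard error is that implied by the F statistic. Exact permutation tests used log2 CPM (prior count 2) and all 70 assignments. DESeq2 1.42.0, the study's tool, was an alternative, beside other scaling, no filter and each library left out. Lengths and positions came from GENCODE M21 and promoters from RefSeq, both on GRCm38, and lists were matched by symbol or identifier. The genes named from a list are those at an unadjusted p under 0.05, at most 6 in each direction, with Nfe2l2, Keap1, Bach1 and Atf4. Of the genes that meet this rule, 1 is not reported here. The 10 genes and the lists were chosen with earlier results of these data known. Scripts were checked on simulated data, 4 libraries against 4, with 200 of 15291 genes changed by 1 on the log2 scale. There edgeR called 108 with 2 false calls, and DESeq2 called 137 with 32 false calls. The DESeq2 calls given above, and the genes that edgeR did not call, are both to be read with this in mind.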

Additional observations from a re-analysis of the deposited data

Results flagged for a closer look

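Each gene's 4 libraries of a genotype were searched for 1 library lying apart, which was found in 4 of 68 such groups, where chance gives about 3.4. In 3 of the 4 it was Nnmt KO library a. In that library, Cbs was at 348 CPM, while the others of its genotype lay between 494 and 517 CPM, Cdo1 at 591 CPM with the others at 875 to 897 CPM, and Mpst at 54.3 CPM with the others at 83.6 to 86 CPM. Without scaling factors the same library was still the lowest for each, at 421 CPM against 471 to 501 CPM for Cbs, 715 against 836 to 864 CPM for Cdo1 and 65.6 against 79.8 to 83.7 CPM for Mpst, but its gap no longer passed the limit. Sp1 in Nnmt KO library d was at 31.5 CPM, below the other Nnmt KO libraries at 34.1 to 34.4 CPM, and without scaling factors it was at 30.1 CPM, below 32.8 to 41.2 CPM, and again within the limit.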

How the results depend on the processing

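No member passed edgeR's adjusted p of 0.05 in the 11 alternatives that used edgeR, and DESeq2's Wald test gave 1 (Csad). At an unadjusted p the count of 2 became 1 without a filter on low counts, and 1 to 3 with single libraries left out. Over all genes the counts moved as well, from 1925 of 15291 to 2214 of 20798 without the filter. With single libraries left out they lay from 1259 of 15576 (without control library a) to 2194 of 15509 (without control library c). Mpst was lost without the filter and without Nnmt KO library a or d or control library a or b, and Gclc came in without Nnmt KO library a or control library c. Members whose libraries did not overlap numbered 1, with 2 under scaling by library size only (Gsr and Mpst, not Csad) and 1 to 3 with single libraries left out. These were 3 without Nnmt KO library b and 2 without control library b, c or d, which added Gclm, Gsr, Gclc or Mpst to Csad. In the main setting 8.16% of all tested genes did not overlap, and this share was not determined for the other settings. With a library left out, separation is also easier to reach, so these counts are not a result about the members. Companion genes at an adjusted p under 0.05 numbered 0, beside 0.32% of all genes, with 1 (Selenbp2) under scaling by library size only (22 of 15291 genes), 8 with DESeq2 (3.46% of all genes), and 0 to 5 with single libraries left out, the 5 coming without Nnmt KO library a (0.963% of all genes). The log2 fold change of Cbs lay between -0.072 and 0.142 and that of Cth between -0.113 and 0.321 with single libraries left out, both changing sign, and the other 8 genes kept their sign in all 12 alternatives. Nnmt was at -1.28 on the log2 scale with DESeq2 as well, with an adjusted p of 0.00467 against 0.123 in edgeR.

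Over all genes, 49 passed an adjusted p of 0.05 in edgeR and 508 in DESeq2, and for these and the shifts above the cause was not tested. At an unadjusted p under 0.05, 834 genes were higher and 1091 lower, and under scaling by library size only 818 were higher and 620 lower, with a median shift of 0.05. By the longest transcript, control levels were 202 CPM per kb for Cth, 75.2 for Cbs, 58.5 for Mpst, 78.2 for Gss, 23.4 for Gclm and 21 for Csad. No paired analysis was possible because the columns carry no mouse numbers. For Cth, the 95% interval with 4 mice a genotype reached 1.66-fold.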

Other observations

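Markers of the position of hepatocytes in the lobule were compared as well. The 8 pericentral markers summed to 12400 to 19800 CPM in control and 7330 to 12500 CPM in Nnmt KO mice. The lowest sum was that of Nnmt KO library a, with the other Nnmt KO libraries at 10400 to 12500 CPM. Most of the pericentral sum came from Cyp2e1, at 9300 to 17200 CPM in control and 4690 (library a) to 9650 CPM in Nnmt KO mice. By edgeR's test, 2 of the 8 were lower at an unadjusted p under 0.05, beside 7.13% of all tested genes. These were Cyp2e1 with a log2 difference of -0.67 (edgeR's adjusted p = 0.328) and Axin2 with -0.43 (adjusted p = 0.261). The pericentral list had 7 log2 differences below 0 and 1 above, that of Glul at 0.08 (edgeR's adjusted p = 0.87). The 8 periportal markers summed to 7040 to 12500 CPM in control and 7020 to 11600 CPM in Nnmt KO mice. Nnmt KO library a was again the lowest, with the other Nnmt KO libraries at 10800 to 11600 CPM. At the same limit only Pck1 was higher, with a log2 difference of 0.42 (edgeR's adjusted p = 0.381), beside 5.45% of all tested genes. The periportal list was mixed, with 5 log2 differences above 0 and 3 below (Cyp2f2 at -0.41, Hal at -0.35 and Gls2 at -0.19). None of these genes passed an adjusted p of 0.05.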
